A study of Mus musculus with 20 samples.

Results

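The 7 CXC chemokine genes Cxcl1, Cxcl2, Cxcl3, Cxcl5, Cxcl9, Cxcl10 and Cxcl16 were followed through 12 lists of p65 and SOCS1 peaks from mouse macrophages. Peaks were taken where their centre lay within 10 kb of the mm10 span of a member, or between the members of the 2 gene clusters on chromosome 5. Peaks of different lists that overlapped by at least 1 bp were joined into a site, so that 2 peaks of a site may meet only through a peak of another list. This gave 43 sites, built from 152 peaks, of the 96700 sites and 258959 peaks in all 12 lists. Of the 43, 33 lay within 10 kb of a member and 10 lay between cluster members. The cluster that runs from Cxcl5 through Cxcl3 and Cxcl1 to Cxcl2 held 27 sites, the Cxcl9 to Cxcl10 cluster 8 and the Cxcl16 locus on chromosome 11 the other 8. The distance was the only measure that chose the sites, and no peak height entered it.

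CXC chemokines are small secreted proteins that draw leukocytes to a site of infection. Cxcl1, Cxcl2, Cxcl3 and Cxcl5 act mainly on neutrophils through the receptor Cxcr2, while Cxcl9 and Cxcl10 are interferon-inducible ligands of Cxcr3 on T cells and natural killer cells. Cxcl16 is made as a membrane-bound protein and is the ligand of Cxcr6. Lipopolysaccharide (LPS), a bacterial cell wall component, acts on macrophages through Toll-like receptor signalling that sends NF-κB to the nucleus. p65 (RelA) is an NF-κB subunit that carries a transactivation domain, and Cxcl1, Cxcl2 and Cxcl10 are textbook NF-κB target genes. SOCS1 is a feedback inhibitor of JAK kinases in cytokine signalling.

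The measurements were CUT&RUN libraries, in which a nuclease tethered to an antibody releases the DNA around a bound protein, of bone-marrow-derived macrophages grown with M-CSF and briefly fixed. The groups were KO macrophages and wild-type (WT, C65BL6) macrophages, each untreated (control) or treated with LPS at 100 ng/mL, with cells taken 30 min and 8 h later. The KO is called NOS1 KO in the study's design text, and SOCS1 is the subject of its title. Which gene the KO cells lack cannot be read from peaks, and the sources used here give no allele, age, sex or number of animals. Each antibody, genotype and treatment had 1 library, so no difference between groups could be tested and every fold below compares 2 libraries. The lists hold no expression values, so the macrophage label could not be checked against marker transcripts.

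Depth was 6.93 to 18.4 M tags per library, and the lists held 9438 to 43124 peaks. The approximate share of a library's tags in peaks ran from 2.12 to 15.21%. For p65 it was 2.55% (KO) and 2.12% (WT) at control, and 15.21% and 13.18% at 30 min. For SOCS1 it was 8.84% (KO) and 2.82% (WT) at control, and 8.1% and 5.41% at 30 min. The part of these differences in the folds below was not tested. Values are the authors' Normalized Tag Count, the tags in a peak per 10000000 tags of the library, written as tags per 10 M. Intervals are exact 95% Poisson intervals on the tags behind a value and cover counting error only. A site missing from a list fell short of at least 1 of that list's calling limits, or lay too near a higher peak of that list. The limits include 4-fold enrichment over the IgG library and over the surrounding 10 kb. The least distance allowed between peaks of a list was 444 to 986 bp, set per library. Absence from a list therefore does not show that the protein was not bound. The lowest value in a list was 6.51 to 10.3 tags per 10 M. Peak widths were set per library and ran from 222 to 493 bp. Limiting each position to 1 tag kept 40.6% of the tags in the peaks of the SOCS1 KO control library and 51.5 to 81.8% in the others. Tall member peaks could keep less, such as 26.0% for p65 in KO cells at 30 min over Med11, beside Cxcl16. Counting intervals are too narrow at such peaks.

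The sequence just before the start site is shown for the 4 members in which it holds the κB consensus, the DNA element that NF-κB dimers bind. RefSeq (GRCm38.p6) gives a promoter for 5 of the 7 members, Cxcl5 and Cxcl16 being the others. Each line gives the 250 bases before the start, 5′ to 3′ on the strand of the gene, with the κB letters in capitals.
Cxcl1, chr5:90890995-90891244, + strand: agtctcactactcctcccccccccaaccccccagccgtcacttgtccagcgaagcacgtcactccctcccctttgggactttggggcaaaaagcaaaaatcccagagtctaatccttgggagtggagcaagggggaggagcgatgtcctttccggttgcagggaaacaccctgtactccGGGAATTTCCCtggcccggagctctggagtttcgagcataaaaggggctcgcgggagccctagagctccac
Cxcl2, chr5:90903649-90903898, + strand: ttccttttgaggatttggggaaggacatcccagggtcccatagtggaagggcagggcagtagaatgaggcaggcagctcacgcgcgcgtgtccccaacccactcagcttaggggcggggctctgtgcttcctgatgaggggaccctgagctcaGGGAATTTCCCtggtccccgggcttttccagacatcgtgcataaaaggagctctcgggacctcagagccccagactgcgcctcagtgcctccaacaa
Cxcl3, chr5:90785851-90786100, + strand: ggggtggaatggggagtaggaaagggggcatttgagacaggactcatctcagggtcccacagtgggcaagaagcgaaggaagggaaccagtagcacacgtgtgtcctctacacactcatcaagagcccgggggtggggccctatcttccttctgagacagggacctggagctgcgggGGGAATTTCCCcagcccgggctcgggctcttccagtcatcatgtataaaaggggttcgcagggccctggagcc
Cxcl10, chr5:92348890-92349139, - strand: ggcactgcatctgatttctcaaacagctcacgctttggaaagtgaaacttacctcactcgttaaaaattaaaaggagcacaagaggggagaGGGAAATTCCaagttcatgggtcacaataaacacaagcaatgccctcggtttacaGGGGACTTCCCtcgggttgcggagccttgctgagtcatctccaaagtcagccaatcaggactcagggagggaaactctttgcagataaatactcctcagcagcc
The same 11 letters stood in 3 neutrophil chemokine genes, 71 to 61 bp before the Cxcl1 start, 97 to 87 bp before the Cxcl2 start and 73 to 63 bp before the Cxcl3 start. Cxcl10 held 10 letters 159 to 150 bp and 11 letters 104 to 94 bp before its start. Runs of 11 are 2 matches of the consensus that overlap, on opposite strands or 1 base apart. Cxcl9 held none in its 300-base window (250 bases before to 50 after the start). The consensus was found, on either strand, in 8.46% of the 32851 mouse promoters in the table. Cxcl10 also held the core of the interferon-stimulated response element 213 to 204 bp before its start, a motif present in 3.44% of promoters. An AP-1 site (TGANTCA), present in 7.81%, stood 74 to 68 bp before the Cxcl10 start and after the Cxcl9 start. No member promoter held the gamma-activated site TTCNNNGAA, present in 8.3%. A match is a description of the letters and does not show binding.

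The p65 peaks nearest to these starts lay further upstream than the κB letters. At Cxcl1 their centres lay 368 bp (KO, 30 min) and 375 bp (WT, 30 min) upstream of the start. At Cxcl2 they lay 401 bp upstream in KO cells at 30 min, and 391 and 356 bp upstream in WT cells at 30 min and 8 h. At Cxcl10 they lay 396 bp (KO, control), 411 bp (KO, 30 min), 420 bp (WT, 30 min) and 438 bp (WT, 8 h) upstream. Cxcl3 had its start-proximal p65 centres 215 bp (KO, 30 min) and 256 bp (WT, 8 h) upstream. Of the 12 lists, 1 had a peak that covered the κB letters of Cxcl2, that of SOCS1 in untreated WT cells, and 0 had one over the κB letters of Cxcl1, Cxcl3 or Cxcl10.

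After 30 min of LPS all 7 members had a p65 peak within 10 kb in both genotypes, against 65.4% of the 21883 protein-coding genes in the KO list and 61.9% in the WT list. In the control lists 4 members had a p65 peak in KO cells (background 35.8%) and 5 in WT cells (32.7%). The 4 in KO cells were Cxcl1, Cxcl2, Cxcl10 and Cxcl16, and the WT list held these and Cxcl9. A peak between Cxcl1 and Cxcl2 can count for both, as did 1 of 19.3 tags per 10 M in the KO control list. At 8 h there were 3 members in the KO list (55.5%) and 6 in the WT list (55.9%). This gap depended on the limits, with 7 members in both lists within 25 kb, and 2 in the KO and 3 in the WT list at 8-fold or more over the local background. The KO list kept Cxcl3, Cxcl9 and Cxcl16, while the WT list lacked only Cxcl5. The members are short genes, and among genes spanning at most 10 kb the shares were lower, 24.5, 47.8 and 39.2% in the KO lists at control, 30 min and 8 h and 21.9, 45 and 39.9% in the WT lists.

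SOCS1 peaks were found near 5 of the 7 members. In KO cells 4 members had one in the control list (background 55.3%), 5 at 30 min (51%) and 4 at 8 h (44.6%). In WT cells the counts were 3 (32.4%), 5 (47.7%) and 3 (38.6%). Cxcl1, Cxcl2 and Cxcl16 had a SOCS1 peak in all 6 SOCS1 lists, and the share of all genes that did is not given here. In KO cells 1 SOCS1 peak counted for both Cxcl1 and Cxcl2 at 30 min (155.4 tags per 10 M) and 1 at 8 h (47.0). Cxcl3 and Cxcl5 had none in any of them. Cxcl9 and Cxcl10 stood between, with SOCS1 peaks at 30 min in both genotypes, Cxcl10 also in the KO control list and Cxcl9 also in the KO list at 8 h. The KO control count is near the share of all genes in that list. Among genes spanning at most 10 kb the SOCS1 shares were 39.3, 36.6 and 32.2% in the KO lists and 22.4, 34.8 and 27.4% in the WT lists.

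**Figure D1:**
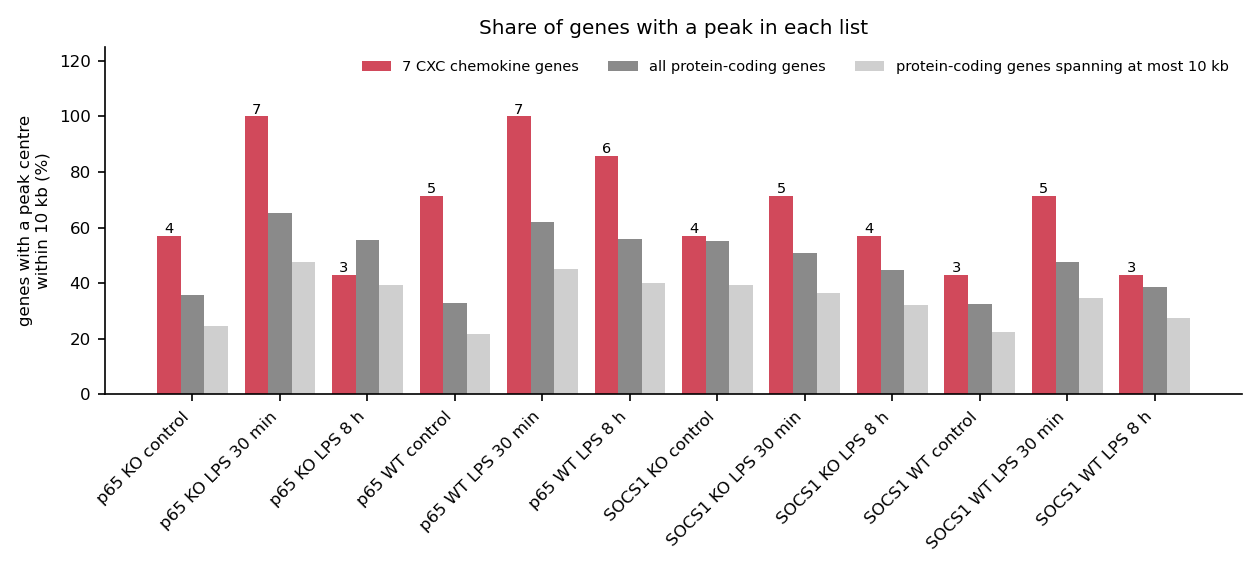
Percent of genes with a peak centre within 10 kb (y axis) in each of the 12 lists (x axis), for the 7 CXC chemokine genes (number above the bar), all protein-coding genes and those spanning at most 10 kb. The member bar reaches all 7 genes in both p65 lists at 30 min and stands below the bar of all genes in 1 list, p65 in KO cells at 8 h.

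Of the member sites on chromosome 5, the tallest lay in the stretch from Cxcl1 to Cxcl2. A site 7.21 kb downstream of the Cxcl1 start (chr5:90898200-90898717, between the genes and in neither) was called in 8 lists. For p65 it held 19.3 (95% interval 11.2 to 30.9) tags per 10 M in untreated KO cells and 153 (136 to 172) at 30 min, and it was not called in KO cells at 8 h. In WT cells it held 36.4 (24.2 to 52.6), 185.8 (163 to 210.0) and 107.2 (88.4 to 129) tags per 10 M for p65 at control, 30 min and 8 h. The 30 min value was 7.93-fold the control value in KO cells (counting interval 4.85 to 13.8) and 5.10-fold in WT cells (3.45 to 7.85). For SOCS1 it held 70.0 (51.7 to 92.7), 82.1 (65.1 to 102) and 33.1 (22.6 to 46.9) tags per 10 M in WT cells, so that the WT control and 30 min values overlapped and the 8 h value lay below both. No KO SOCS1 list called it, but KO SOCS1 peaks of 47.2 tags per 10 M (control) and 47.0 (8 h) lay just upstream, each as a site of its own, the nearer 94 bp away. The nearer is that of the 8 h list, whose least distance of 750 bp between peaks can leave out a second one.

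Next to it, 3.3 kb upstream of the Cxcl2 start (chr5:90900369-90900830, intergenic), a site was called in 7 lists. p65 held 198.8 (179 to 220.0) tags per 10 M in KO cells at 30 min and was called at neither other time there. In WT cells p65 held 27.3 (16.9 to 41.7), 214.7 (191 to 241) and 136 (115 to 160.0) tags per 10 M, with a 30 min value 7.86-fold that of control (5.05 to 12.9). SOCS1 was called here after LPS and in neither control list. It held 155.4 (131 to 183) tags per 10 M in KO cells at 30 min, against 61.1 (46.6 to 78.7) in WT cells at 30 min and 36.3 (25.2 to 50.6) in WT cells at 8 h. The KO value at 30 min was the highest SOCS1 value at any member site, 2.54-fold the WT value (1.86 to 3.48). KO SOCS1 peaks were wider than WT ones at 30 min (396 against 227 bp), and per 100 bp of peak the ratio was 1.45. Limiting each position to 1 tag kept 37.8% of the tags of the KO peak and 62.1% of those of the WT peak. The part of this in the ratio was not tested.

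At the start-proximal Cxcl2 site (chr5:90903380-90903853, centred 283 bp upstream of the start, in no gene) p65 was called after LPS and not in either control list. It held 221.1 (200 to 244) tags per 10 M in KO cells at 30 min, a value above those of 99.1% of peaks in that list, and was not called there at 8 h. In WT cells p65 held 195.9 (173 to 221) at 30 min and 147.8 (126 to 173) at 8 h. SOCS1 was called here in all WT lists, with 17.3 (8.94 to 30.2), 71.3 (55.5 to 90.2) and 33.1 (22.6 to 46.9) tags per 10 M at control, 30 min and 8 h, and in no KO list. The WT SOCS1 value at 30 min was 4.12-fold that of control (2.20 to 8.30). It was the only 1 of 6 member sites shared by those lists to pass 2-fold, but per 100 bp of peak (343 bp wide at control, 227 bp at 30 min) 3 of the 6 did (33.1% of all shared sites).

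The 3 sites from Cxcl1 to Cxcl2 were thus high for p65 in both genotypes at 30 min, still called in WT cells at 8 h, and absent from the KO list at 8 h. Their 9 p65 peaks after LPS held 107.2 to 221.1 tags per 10 M but stood only 4.49- to 8.25-fold over the surrounding 10 kb, near the limit of 4. The 8 h KO list had the widest peaks, 493 bp against 239 bp in the 8 h WT list, and a lower median enrichment over the local background, 6.93 against 8.33 over all its peaks. The part of these in the missing calls was not tested.

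The Cxcl1 start itself had a single, early p65 site (chr5:90890743-90890997, centred 375 bp upstream, in no gene). It held 71.1 (59.4 to 84.4) tags per 10 M in KO cells and 87.5 (72.3 to 105) in WT cells, both at 30 min, and no other list called it. Upstream of Cxcl1, a site 9.4 kb from the start (chr5:90881641-90882055) held 93.8 tags per 10 M for p65 in KO cells at 30 min and 41.1 in WT cells at 8 h. For SOCS1 it held 47.8 in untreated KO cells and 20.5 in WT cells at 30 min. This site joins different lists at different times in the 2 genotypes and is in no gene.

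A site 14.5 kb upstream of the Cxcl1 start (chr5:90876289-90877294, intergenic), in the stretch between Cxcl3 and Cxcl1, was called in 10 of the 12 lists. p65 held 26.2, 136.2 and 69.6 tags per 10 M in KO cells at control, 30 min and 8 h. In WT cells p65 was not called at control and held 137.4 at 30 min and 42.5 at 8 h. SOCS1 held 96.1 and 25.1 tags per 10 M in KO cells at 30 min and 8 h, and 32.5, 43.1 and 24.2 in WT cells. The site is a chain of peaks, and some of these values come from different places in it. The KO control and 30 min p65 peaks lay 331 bp apart, the WT 30 min and 8 h p65 peaks 322 bp apart and the WT control and 30 min SOCS1 peaks 345 bp apart, so these values do not follow 1 position over time. Between genotypes the 30 min peaks overlapped. The p65 values at 30 min differed by less than counting error between the genotypes (KO over WT 0.991, interval 0.816 to 1.21), while the SOCS1 value was 2.23-fold higher in the KO list (1.54 to 3.32), or 1.27-fold per 100 bp. With 1 tag allowed at each position, the KO SOCS1 peak at 30 min kept 56.6% of its tags and the WT peak 85.7%. Further sites 28.9 and 23.6 kb upstream of Cxcl1, each called in 3 lists, held at most 28.6 and 20.0 tags per 10 M.

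**Figure D2:**
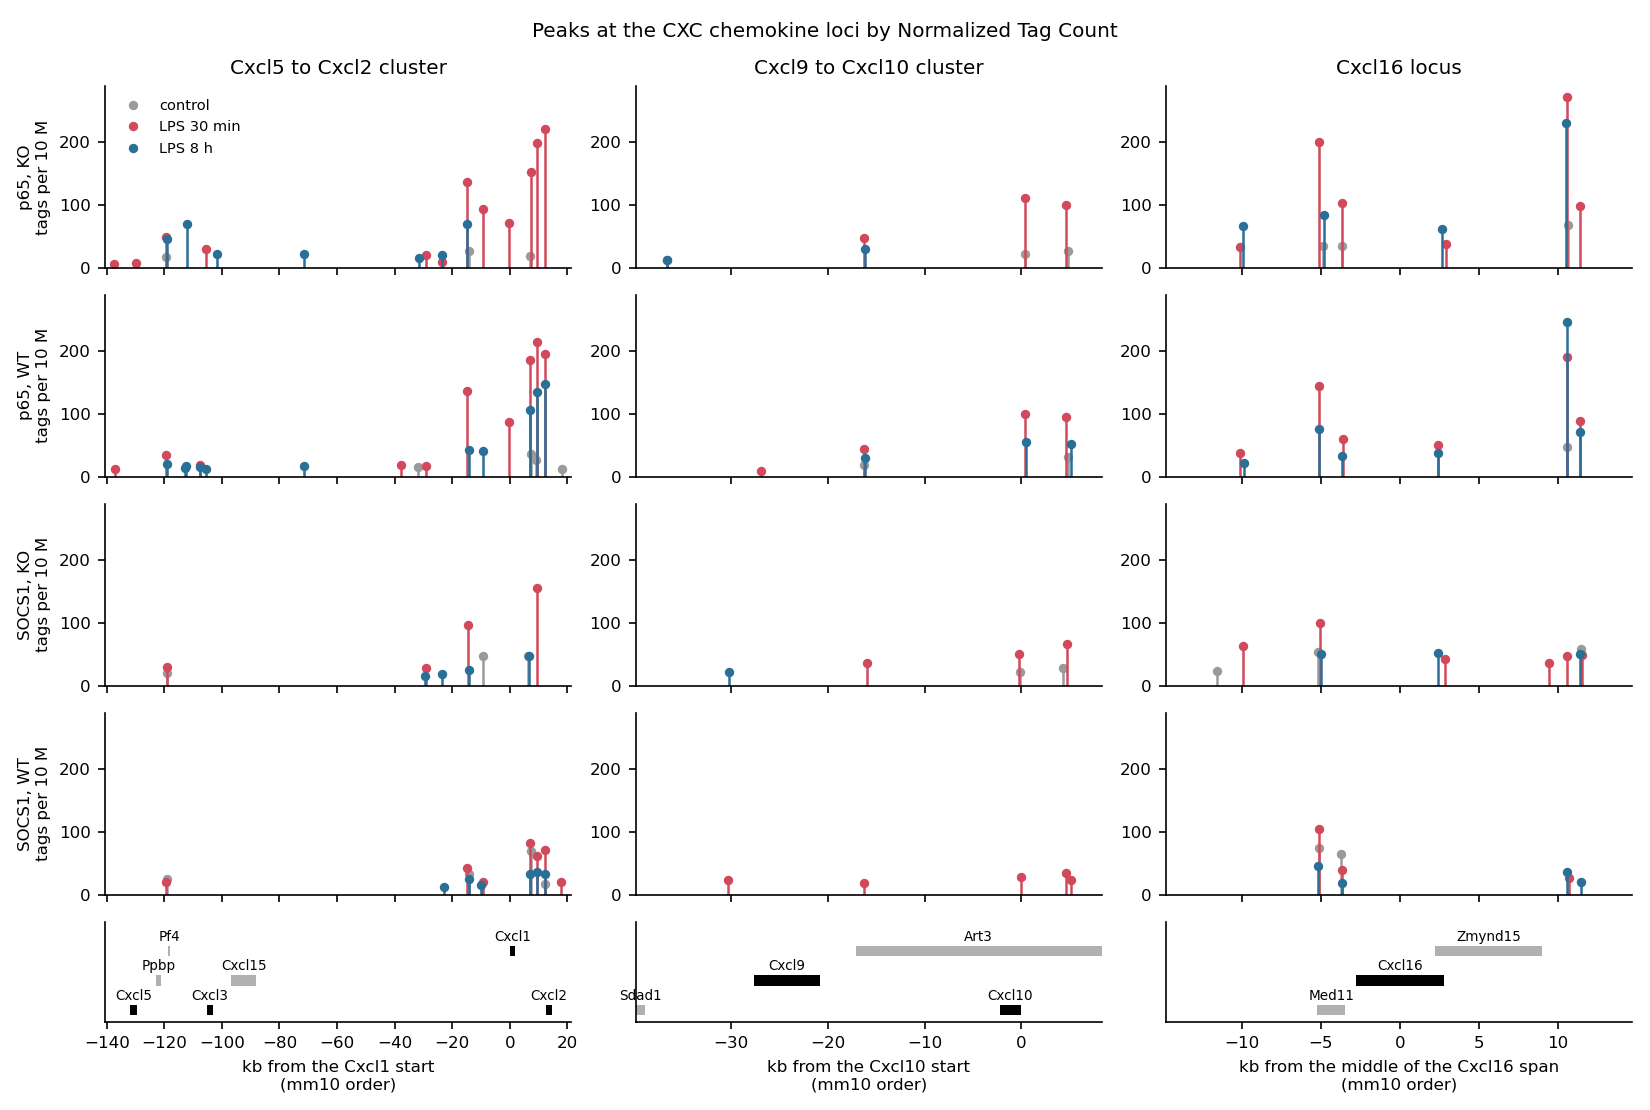
Normalized Tag Count (y axis, tags per 10 M) of the highest peak of each list at every site of the 3 loci against distance in kb (x axis, from the Cxcl1 start, the Cxcl10 start and the middle of the Cxcl16 span), with 1 row for each antibody and genotype, colours for the treatment and gene spans below (members black). The tall p65 peaks from Cxcl1 to Cxcl2 appear in both genotypes at 30 min and in the WT row alone at 8 h, and the Cxcl5 to Cxcl3 end stays under 70.0 tags per 10 M.

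Cxcl3 and Cxcl5, the other neutrophil chemokine genes of the cluster, had lower p65 values at 30 min than Cxcl1 and Cxcl2. At the Cxcl3 start a site 0.24 kb upstream held 29.8 tags per 10 M for p65 in KO cells at 30 min and 13.2 in WT cells at 8 h. The highest p65 value within 10 kb of Cxcl3 was 69.6 (54.9 to 87.0) in KO cells at 8 h, 7.01 kb upstream, above those of 82.2% of peaks in that list. The WT list held 17.9 (10.8 to 28.0) there in the higher of its 2 peaks. The KO over WT ratio there was 3.89 (2.34 to 6.83), against 1.88 per 100 bp and 2.05 with both WT peaks summed. Cxcl5 had a p65 peak only at 30 min, of 6.51 and 8.14 tags per 10 M in KO cells and 12.8 in WT cells. Among the cluster sites outside 10 kb of a member, one at the start of Pf4 (platelet factor 4, another CXC ligand) was called in 9 lists, with at most 49.1 tags per 10 M (p65, KO, 30 min).

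Cxcl10 was called for p65 and SOCS1 at different places around its start. The p65 site (chr5:92349109-92349461, centred 396 bp upstream) held 22.2 (13.5 to 34.5) tags per 10 M in untreated KO cells and 111.2 (96.5 to 128) at 30 min, and was not called in KO cells at 8 h. In WT cells it was not called at control and held 100.2 (83.9 to 119) at 30 min and 56.2 (42.8 to 72.4) at 8 h. No SOCS1 list called it. A site over the start of the gene (chr5:92348426-92348959), 149 bp away, was called for SOCS1 alone, with 21.7 (12.7 to 34.5) and 50.5 (37.0 to 67.4) tags per 10 M in KO cells at control and 30 min and 28.7 (19.1 to 41.5) in WT cells at 30 min. The KO SOCS1 lists at control and 30 min set peaks at least 828 and 792 bp apart. A call over the start can thus leave out one at the p65 site in these lists, and the part of this rule in the separation was not tested. Both sites lie inside the annotated span of Art3, which runs across this cluster.

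Further upstream of Cxcl10, a site 4.54 kb from the start (chr5:92352991-92353861) was called for both antibodies. p65 held 27.3 and 100.9 tags per 10 M in KO cells at control and 30 min, and 31.2 and 95.3 in WT cells. SOCS1 held 28.6 and 67.0 in KO cells and, at 30 min alone, 34.4 in WT cells. The KO SOCS1 peaks at control and 30 min lay 26 bp apart. At 8 h neither antibody was called there in either genotype, but a WT p65 peak of 51.9 tags per 10 M lay in the adjoining site, 24 bp away. At both p65 sites the KO over WT ratio at 30 min was near 1, with values of 1.11 (0.891 to 1.40) near the start and 1.06 (0.84 to 1.34) upstream.

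Cxcl9, which holds no κB consensus in its promoter window, had no peak over its start in any list. Its main site lay 4.71 kb upstream (chr5:92332472-92333106, inside Art3) and was called in 7 lists. p65 held 48.0 and 29.5 tags per 10 M in KO cells at 30 min and 8 h, and 18.2, 44.3 and 30.7 in WT cells at control, 30 min and 8 h. SOCS1 was called at 30 min, with 36.8 (25.4 to 51.5) in KO cells and 18.0 (10.6 to 28.6) in WT cells. All of these were lower than the p65 values at the Cxcl10 start at the same times, 30 min in both genotypes and 8 h in WT cells.

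The Cxcl16 locus held the highest p65 value of all 43 sites and, at Med11, the site called in most lists. Its tallest site lay 7.78 kb outside the gene span (chr11:70467484-70468038, in no gene, beyond the neighbouring Zmynd15). p65 held 68.3 (52.1 to 87.9), 273.1 (250 to 298) and 231.4 (204 to 262) tags per 10 M in KO cells at control, 30 min and 8 h. In WT cells the values were 48.1 (33.9 to 66.3), 190.7 (168 to 216) and 246.9 (218 to 279). Unlike the sites within 10 kb of Cxcl1, Cxcl2 and Cxcl10, this one was called for p65 at 8 h in KO cells. It was also the only one of the 14 sites that both WT p65 lists after LPS shared whose value was higher at 8 h than at 30 min (1.29-fold, interval 1.08 to 1.54), as measured by the highest peak of a list in a site. SOCS1 stood below p65 there, with 47.8 tags per 10 M in KO cells at 30 min, and 26.7 and 36.8 in WT cells at 30 min and 8 h. These values were above those of 75.5, 67.8 and 86.2% of the peaks in their lists.

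On the other side of Cxcl16, a site over the neighbouring gene Med11 (chr11:70451815-70452600, 2.18 kb from the Cxcl16 span) was called in 11 lists, all but p65 in untreated WT cells. p65 held 35.3, 200.4 and 85.0 tags per 10 M in KO cells at control, 30 min and 8 h, and 144.5 and 76.5 in WT cells at 30 min and 8 h. SOCS1 held 54.0, 99.4 and 50.8 in KO cells and 75.0, 105.2 and 45.7 in WT cells. The SOCS1 values of the genotypes had overlapping intervals at every time, with KO over WT ratios of 0.72 (0.464 to 1.09), 0.945 (0.705 to 1.27) and 1.11 (0.701 to 1.75). A second Med11 site 0.895 kb from the span was called for SOCS1 in WT cells alone, with 64.2, 39.0 and 18.9 tags per 10 M at control, 30 min and 8 h, where the 8 h value was 0.294-fold that of control (0.162 to 0.527). p65 held 34.7 and 102.8 tags per 10 M there in KO cells at control and 30 min, and 59.7 and 33.1 in WT cells at 30 min and 8 h. It was not called there in KO cells at 8 h. Because Med11 and Zmynd15 adjoin or overlap Cxcl16, these sites cannot be assigned to 1 gene.

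The site at the Zmynd15 end of the Cxcl16 span (chr11:70459428-70460269) was called after LPS alone, with at most 61.8 tags per 10 M for p65 (KO, 8 h). The WT p65 list at 8 h had 2 peaks there, whose sum was 1.44-fold the 30 min value. SOCS1 was called there in KO cells alone, with 43.4 tags per 10 M at 30 min and 52.8 at 8 h in peaks 71 bp apart. A site 7.17 kb away held at most 67.3 tags per 10 M (p65, KO, 8 h). The site 8.66 kb away, just inside the 10 kb limit, held 98.2 tags per 10 M for p65 in KO cells at 30 min and 89.0 and 71.8 in WT cells at 30 min and 8 h. In KO cells at 8 h p65 was not called at this site. SOCS1 held 58.3, 49.4 and 50.8 in KO cells at control, 30 min and 8 h, and 19.5 in WT cells at 8 h.

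**Figure D3:**
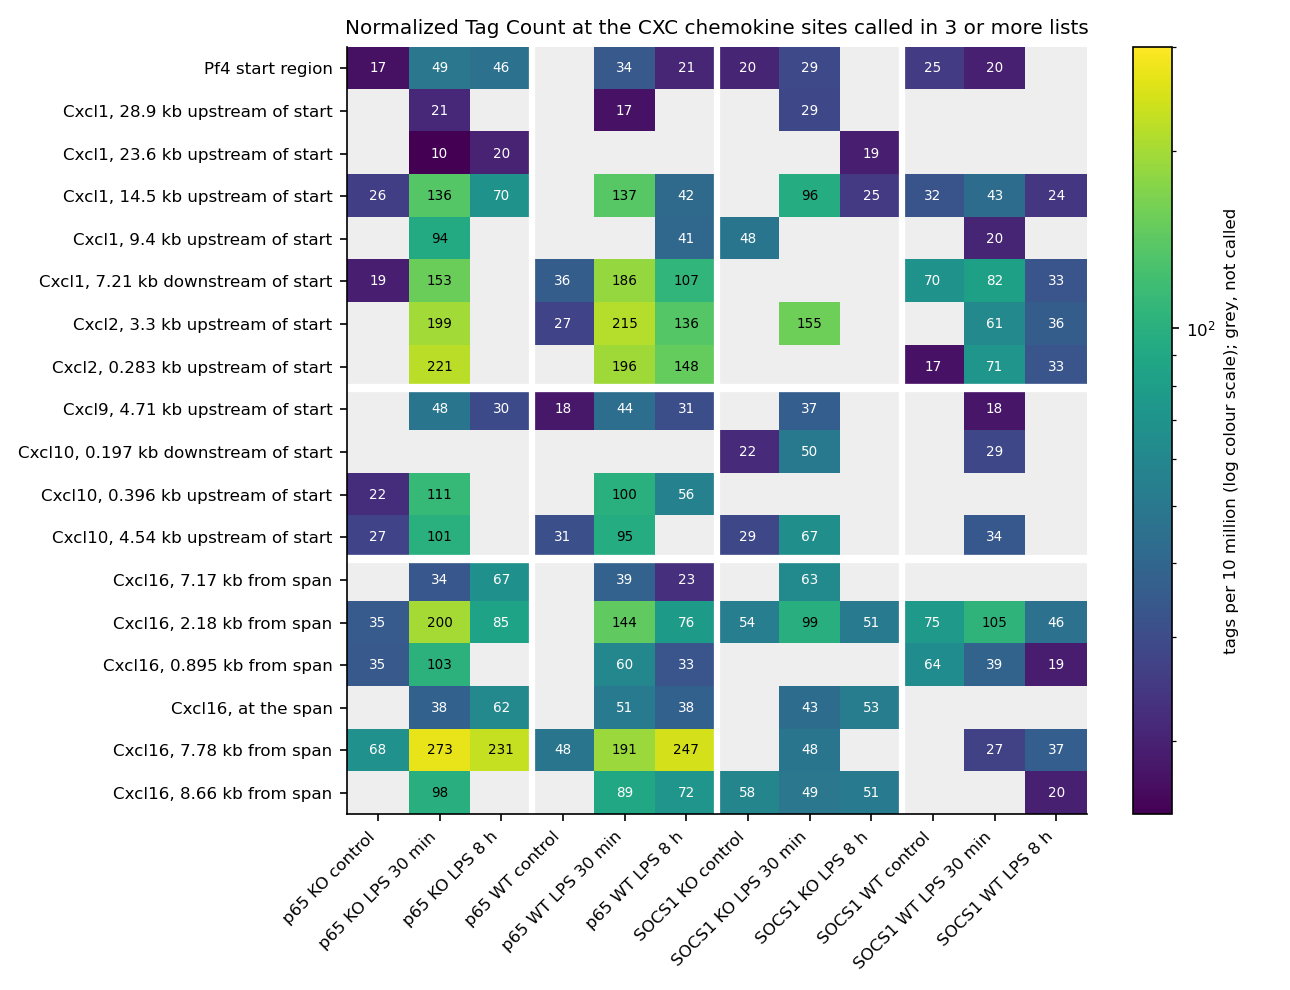
Normalized Tag Count (colour on a log scale and printed, tags per 10 M) at the 18 sites called in 3 or more lists (rows, by nearest member) in the 12 lists (columns). Grey cells were not called, and they fill the p65 KO 8 h column at the Cxcl1, Cxcl2 and Cxcl10 sites apart from those 23.6 and 14.5 kb upstream of Cxcl1. That column is also grey at the Cxcl16 sites 0.895 and 8.66 kb from the span.

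At every member site that both lists called, p65 was higher after 30 min of LPS than in control cells. This held at 8 of 8 sites in KO cells and 5 of 5 in WT cells by at least 2-fold, against 46.6% and 44.6% of all sites shared by the same lists, and 0 were 2-fold lower (1.98% and 0.865% of all). The median ratio was 4.50 in KO cells (all sites 1.88) and 3.96 in WT cells (1.85). None of these shared sites lay within 10 kb of Cxcl3 or Cxcl5, and in KO cells none lay within 10 kb of Cxcl9. In 1 of the 8 KO sites, that 14.5 kb upstream of Cxcl1, the 2 peaks did not overlap, and the other 7 of 7 sites all passed 2-fold (46.7% of sites with overlapping peaks). A further 14 member sites in KO cells were called at 30 min and not at control, 63.6% of those called at 30 min against 85.4% of all. In WT cells these were 15, 75.0% against 85.8%. At 8 h over control the ratio passed 2-fold at 4 of 4 sites in KO cells (background 51.5%) and 3 of 4 in WT cells (21.3%), with 0 lower by 2-fold in either genotype (0.752% in KO and 3.61% in WT cells). Per 100 bp of peak 1 of the 4 KO sites passed (30.3%), the KO peaks at 8 h being 493 bp wide. The 8 h over 30 min ratio had a median of 0.618 over 14 sites in WT cells, against 0.702 over all sites, and 0 passed 2-fold upwards (4.29%) and 1 downwards (22.3%). That 1 was the chained site 14.5 kb upstream of Cxcl1, and of the 12 sites whose peaks overlapped 0 passed downwards (22.3%). In KO cells the 8 h over 30 min median was 0.935 over 9 sites, against 1.22 over all, with 1 site 2-fold higher (20.6%) and 1 lower (7.53%). Per 100 bp of peak this median was 0.422 (all sites 0.551), with 0 of 9 higher (2.91%) and 6 lower (43.5%).

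For SOCS1 fewer of the shared sites passed 2-fold after LPS. The 30 min over control ratio passed 2-fold at 2 of 5 shared sites in KO cells (10.1%) and 1 of 6 in WT cells (10.8%), with medians of 1.84 (all sites 0.989) and 1.25 (1.04), and 0 were 2-fold lower (11% in KO and 7.98% in WT cells). At 1 of the 2 KO sites, that 4.54 kb upstream of Cxcl10, the 2 peaks did not overlap, which leaves 1 of 4 sites with overlapping peaks (10.3%). At 8 h over control 0 of 2 sites in KO cells passed 2-fold in either direction (3.9% up and 22.6% down). In WT cells 0 of 5 passed upwards (2.27%) and 2 downwards (18.7%). At 8 h over 30 min, 1 of 4 shared sites in KO cells was at least 2-fold lower (18.1%) and 0 were higher (2.82%). In WT cells 4 of 7 were lower (23.6%) and 0 higher (2.71%). All 4 WT sites lay near Cxcl1, Cxcl2 or Cxcl16, with ratios of 0.403 to 0.485.

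Between genotypes, the p65 values at 30 min were close. Of 16 member sites called in both lists, 0 differed by 2-fold in either direction (1.2% of all shared sites did so upwards and 1.2% downwards), and KO over WT ratios ran from 0.753 to 1.72 with a median of 1.09. The lowest ratio compares peaks 249 bp apart at the Zmynd15 end of Cxcl16, and the other 15 ratios, of peaks that overlapped, ran from 0.813. In untreated cells both p65 lists called 3 member sites, with 0 of them 2-fold higher (4.51%) or lower (4.02%) in KO cells. No member lost its p65 peak at 30 min in KO cells relative to WT (4.13% of genes did). At 8 h the calls by gene differed: Cxcl1, Cxcl2 and Cxcl10 had a p65 peak in the WT list and none in the KO list, 3 of 6 members against 11.7% of genes. Cxcl1 and Cxcl2 are not separate cases here, since sites between these genes count for both. Within 25 kb all 7 members had a p65 peak in both 8 h lists. Counted by site, the KO list lacked 11 of the 20 member sites of the WT list and shared 9. Over all sites it shared 15571 of the 30491 in the WT list, so missing KO calls were common outside the members too. The 9 member sites that both 8 h lists called had a median KO over WT ratio of 1.62, near the 1.65 of all sites. Of these 3 were at least 2-fold higher in the KO list (31.8%) and 0 lower (0.122%), and 0 were higher per 100 bp of peak (1.42%). For SOCS1 at 30 min 3 of 8 sites were at least 2-fold higher in the KO list (27.9%) and 0 lower (1.82%), and again 0 were higher per 100 bp (3.56%). In the control lists 0 of 2 shared sites were 2-fold higher (29.6%) or lower (1.48%) in KO cells for SOCS1, and at 8 h 1 of 3 was higher (27.7%) and 0 lower (0.478%).

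**Figure D4:**
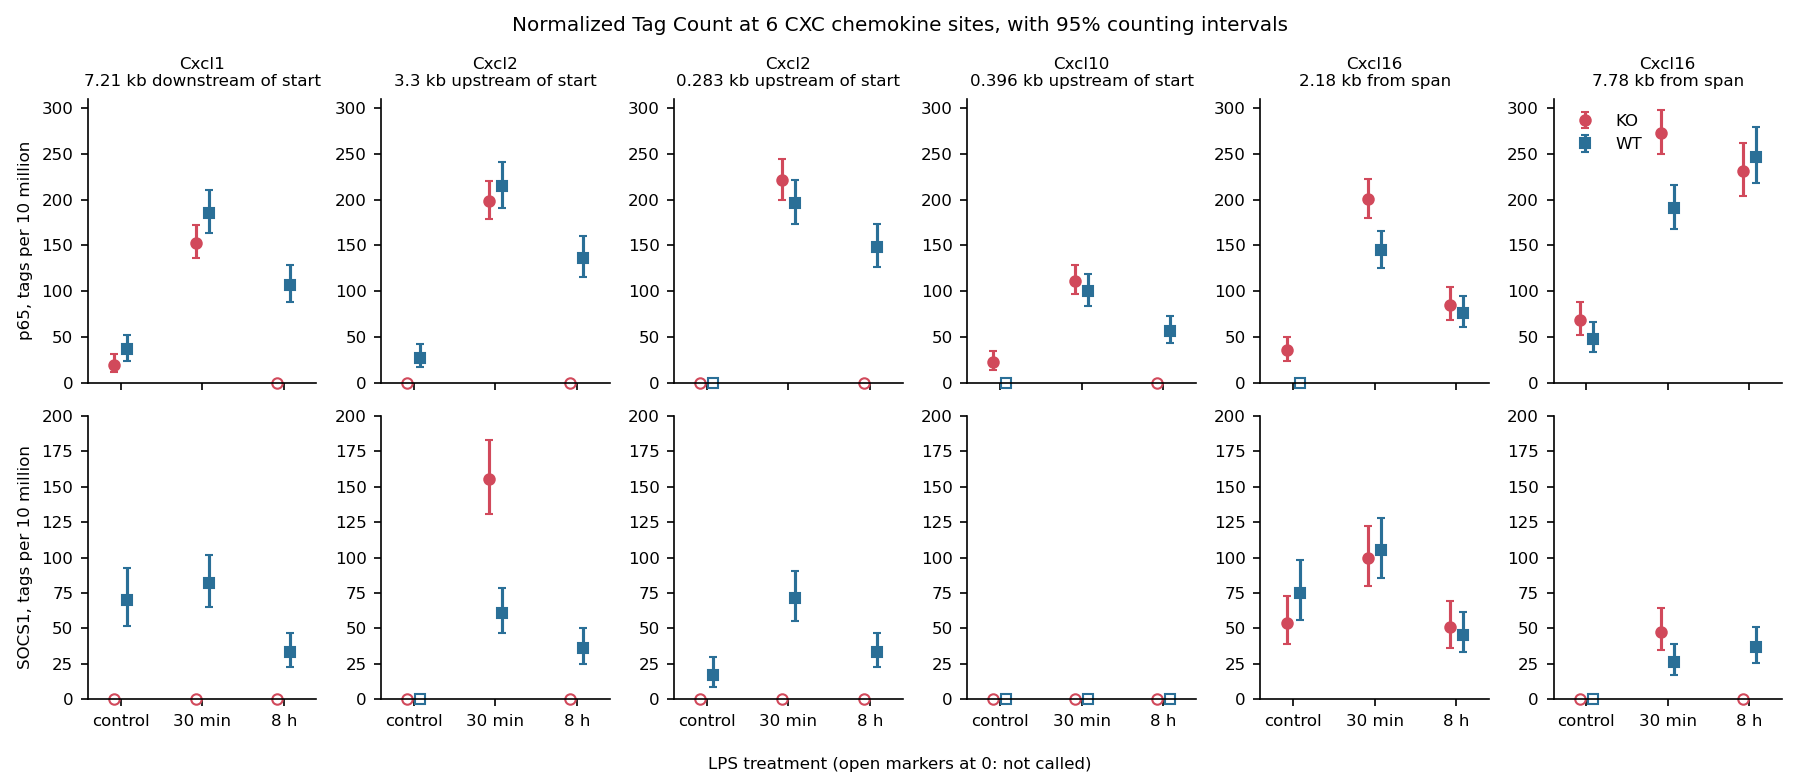
Normalized Tag Count (y axis, tags per 10 M, with 95% counting intervals) for p65 (top) and SOCS1 (bottom) at control, 30 min and 8 h of LPS (x axis) at 6 sites, with KO as circles and WT as squares, and open markers at 0 where a list did not call the site. The 6 sites are a choice among those called in 3 or more lists. The genotypes lie near each other for p65 at 30 min. At 8 h the KO marker is open at the Cxcl1, Cxcl2 and Cxcl10 sites shown and stands beside WT at both Cxcl16 sites shown. The Cxcl16 sites 0.895 and 8.66 kb from the span are not shown, and p65 was not called there in KO cells at 8 h.

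p65 and SOCS1 met at some member sites and not at others. In KO cells they shared 3 sites at control (of 8 p65 and 8 SOCS1 sites), 11 at 30 min (of 22 and 13) and 4 at 8 h (of 13 and 8). In WT cells they shared 1 (of 7 and 6), 10 (of 20 and 15) and 8 (of 20 and 10). At 30 min this was 84.6% of the SOCS1 sites in KO cells and 66.7% in WT cells, where 66.2% and 60.3% of all SOCS1 sites were also p65 sites. It was 50% of the p65 sites in both genotypes, against 31% (KO) and 32.7% (WT) of all p65 sites. At 8 h it was 50% of the SOCS1 sites in KO cells (59.3% of all) and 80.0% in WT cells (74.5%), and 30.8% and 40.0% of the p65 sites (35.8% and 33.2%). The control shares were 37.5% of both kinds in KO cells (41.3% of all p65 and 18.2% of all SOCS1 sites) and 14.3% of p65 and 16.7% of SOCS1 sites in WT cells (28.3% and 28.9%). At 1 of the 3 shared sites in untreated KO cells, 4.54 kb upstream of Cxcl10, the p65 and SOCS1 peaks did not overlap, which leaves 2 sites, 25% of both kinds (37% of all p65 and 16.3% of all SOCS1 sites). Joining peaks up to 500 bp apart, a choice made after seeing the data, gave 6 shared sites in place of 3 in untreated KO cells. The p65 and SOCS1 lists of a genotype and treatment share their IgG library.

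Over all 12 lists, 17 of the 43 sites were called for both antibodies (33.9% of all sites were), 16 for p65 alone (40.6%) and 10 for SOCS1 alone (25.5%). After LPS alone 25 were called (58.6%), and 3 in control lists alone (18.5%). Sites called in 1 list numbered 16, 37.2% against 51.9% of all sites, with at most 47.2 tags per 10 M. The 9 sites called in 2 lists reached 87.5. Fold over IgG at the 152 member peaks ran from 4.15 to 273 with a median of 23.0.

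The 10 kb limit left out a tall site near the Cxcl9 to Cxcl10 cluster. It lay 20.0 kb from Cxcl10, beyond Cxcl11 (chr5:92368617-92369162, inside Art3), and was called in 9 lists. p65 held 19.9, 136.7 and 252.7 tags per 10 M in KO cells at control, 30 min and 8 h, and 113 and 71.3 in WT cells at 30 min and 8 h. SOCS1 held 141.1 and 92.0 in KO cells at 30 min and 8 h, and 55.6 and 46.3 in WT cells at control and 8 h. An adjoining site (chr5:92367997-92368514) held SOCS1 peaks of 36.6 in untreated KO cells and 51.8 in WT cells at 30 min. It also held a p65 peak of 51.0 in WT cells at 8 h. At the tall site p65 in KO cells at 8 h stood above its 30 min value, though per 100 bp of peak it stood below it (51.4 against 61.6). No site within 10 kb of Cxcl10 was called in the KO p65 list at 8 h. Just inside the limit, the sites 9.4 kb from Cxcl1 and 9.0 kb from Cxcl9 reached 93.8 and 12.3 tags per 10 M. Just outside it, sites 11.6 kb from Cxcl9 over Sdad1 and 11.7 kb from Cxcl5 reached 35.1 and 20.6.

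Of 8 other CXC ligand genes, 4, 6 and 5 had a p65 peak within 10 kb in KO cells at control, 30 min and 8 h (all genes 35.8, 65.4 and 55.5%) and 1, 4 and 5 in WT cells (32.7, 61.9 and 55.9%). A SOCS1 peak stood near 5, 4 and 2 of them in KO cells (55.3, 51 and 44.6%) and near 4, 4 and 2 in WT cells (32.4, 47.7 and 38.6%). Pf4, Ppbp and Cxcl15 lie in the Cxcl5 to Cxcl2 cluster and share sites with the members. Cxcl11 lies beyond Cxcl10 and shares sites with it in some lists. Its peaks of 252.7 (p65, KO, 8 h), 92.0 (SOCS1, KO, 8 h), 55.6 (SOCS1, WT, control) and 46.3 (SOCS1, WT, 8 h) tags per 10 M belong to no member site. Of the rest, Cxcl17 had p65 peaks of 34.1, 40.4 and 55.5 tags per 10 M in KO cells and of 65.7 and 47.2 in WT cells after LPS. Cxcl12 (stromal cell-derived factor 1) had 1 peak, of 8.95 tags per 10 M, and Cxcl13, the B cell chemokine, had SOCS1 peaks in untreated KO cells alone, of at most 18.6. Cxcl14 had none. Of 7 receptor genes, 2, 6 and 5 had a p65 peak in KO cells and 2, 5 and 5 in WT cells, against the same shares of all genes. A SOCS1 peak stood near 5, 5 and 5 of them in KO cells and near 2, 4 and 2 in WT cells. Cxcr2, the receptor of the neutrophil chemokines, had no peak in any list, and Cxcr6, the receptor for Cxcl16, had p65 peaks of 97.9 and 69.6 tags per 10 M in KO cells at 30 min and 8 h and 59.3 and 57.1 in WT cells.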

How the data were processed

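The files were 12 peak lists, 1 for each antibody (p65, SOCS1), genotype and treatment, of 20 samples. The 6 IgG libraries were used by the authors in calling peaks, and 2 internal controls were not analysed here. Per the submitters' processing notes, cutadapt, Bowtie2 2.4.1, HOMER 4.11 and mm10 were used. Per the file headers, HOMER findPeaks called each list in factor mode against the IgG library matched to it in genotype and treatment, with an FDR of 0.001, at least 4-fold over IgG and over the local 10 kb, and at most 1 tag per bp. Per the file headers the signal, Normalized Tag Count, is the tag count of a peak scaled to 10000000 tags. The deposited score is that of findPeaks, counted with 1 tag allowed at each position, and served for the share of tags kept. The ratio is the authors' fold over IgG or over the local background; both were used to describe peaks within a list. The spike-in named in the labels was not used here.

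From these, peaks were joined into sites, distances were measured to RefSeq spans (GRCm38.p6, the mm10 assembly), and the highest peak of a list was its value at a site. Folds have exact conditional intervals on the tags, which cover counting error only and are too narrow where duplicate reads remain. Sites called in at least 3 lists, and the top site of each member, are described singly. Members, lists and thresholds were chosen with earlier results of these data known. Alternatives were distances of 5 and 25 kb, at least 8-fold over the local background, a common lowest value of 10.3, other rules for joining, folds from directly overlapping peaks, values per 100 bp and sums. The site joining and intervals were tested on simulated data. Python 3.11.15, pandas 2.3.3, numpy 2.4.6, scipy 1.17.1 and matplotlib 3.10.9 were used.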

Additional observations from a re-analysis of the deposited data

Results flagged for a closer look

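One pair of ratios lay on opposite sides of 1 in the genotypes. At the Pf4 start in the Cxcl5 to Cxcl2 cluster (chr5:90771668-90772448), the SOCS1 value at 30 min of LPS was 1.42-fold the control value in KO cells (29.1 against 20.5 tags per 10 M, counting interval 0.707 to 2.66). In WT cells it was 0.771-fold (19.5 against 25.3 tags per 10 M, 0.373 to 1.52). The WT peaks lie 105 bp apart and belong to 1 site only through peaks of other lists, so the WT ratio does not follow 1 position over time, whereas the KO peaks overlap. Both intervals include 1, each group is 1 library and the difference was not tested. Per 100 bp of peak both ratios were above 1 (1.48 in KO cells and 1.17 in WT cells).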

How the results depend on the processing

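No paired analysis was possible because each group has 1 library. Requiring at least 8-fold over the local background moved most counts. Members with a p65 peak became 2 and 4 in KO cells at control and 30 min, and 4 and 3 in WT cells at 30 min and 8 h. Members with a SOCS1 peak became 2, 2 and 2 in KO cells at control, 30 min and 8 h, and 3 and 1 in WT cells at 30 min and 8 h. Sites per list became 5, 7 and 3 (p65, KO, control, 30 min and 8 h), 7 and 5 (p65, WT, 30 min and 8 h), 3, 4 and 3 (SOCS1, KO) and 7 and 3 (SOCS1, WT, 30 min and 8 h). Shared sites became 0, 2 and 0 in KO cells and 0, 4 and 2 in WT cells. Within 25 kb, all 7 members had a p65 peak in KO cells at control and 8 h and a SOCS1 peak in untreated KO cells, and 6 and 5 had a SOCS1 peak in WT cells at control and 8 h. Within 5 kb, members with a p65 peak at control were 2 in KO cells and 3 in WT cells. With centres within 200 bp, 2 sites were shared in KO cells at 8 h; joined across 500 bp, 6 were in untreated KO cells. With folds drawn only from peaks that overlap directly, a choice made after seeing the data, 1 site was 2-fold higher for SOCS1 in KO cells at 30 min over control and 0 were lower for p65 in WT cells at 8 h over 30 min.

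Per 100 bp of peak width, sites at least 2-fold higher over control were 1 for p65 in KO cells at 8 h, and 3 and 1 for SOCS1 in WT cells at 30 min and 8 h, with 1 lower at 8 h. For p65 in KO cells at 8 h over 30 min, 0 were higher and 6 lower. KO over WT, 0 were higher and 2 lower for p65 at 8 h, and 0 were higher for SOCS1 at 30 min and at 8 h. The p65 ratio 23.6 kb upstream of Cxcl1 in KO cells (8 h over 30 min) was 0.902 per 100 bp, against 2.00. By construction these shifts follow the peak widths. All other counts stayed within 1.5 times. Without replicates the spread between cultures is unknown, and leaving out a library leaves no value for its group.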
